A study of Arabidopsis thaliana with 12 samples.

Results

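The GASA genes (gibberellic acid stimulated in Arabidopsis) encode small secreted peptides with a conserved cysteine-rich carboxy terminus. GASA1, GASA2, GASA3, GASA4, GASA6 and GASA14 are described here in germinating Arabidopsis thaliana with and without salt. They were chosen by gene identifier, 6 of the 33602 genes in the count table, with the counts and differences of these same libraries already known. Every level and call below therefore describes the chosen genes and is not independent evidence about them. Of the 15 family genes listed, 7 had enough counts to be tested, namely these 6 and GASA7. The member with the fewest counts, GASA1, had 312 over the 12 libraries, and GASA7, just outside the set, had 125.

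RNA came from material labelled as pre-germinated seedlings of wild type Col-0 and of camta6-5, a mutant allele of the gene for the calmodulin-binding transcription activator CAMTA6. Cold-stratified seeds of both genotypes were sown on agar-solidified MS medium. The control groups had 0 mM NaCl and the salt groups 200 mM NaCl for 16 hours, and all 4 groups of 3 libraries shared the medium and the cold treatment. The study examined how camta6 mutants germinate in salt.

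Gibberellin is the hormone that promotes germination and growth, and abscisic acid opposes it. Active gibberellin is bound by GID1 receptors, which lead to the destruction of the DELLA repressors through F-box proteins, and several GASA genes are known to be induced by the hormone. GASA2 and GASA3 transcripts are known from siliques and dry seeds. GASA6 is known to promote germination through cell elongation in the embryonic axis, and GASA4 and GASA14 are known as gibberellin-induced genes that promote growth. GASA1 was among the first members found, by its likeness to the tomato gene GAST1.

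Libraries held 29473212 to 35450685 counts. CAMTA6 itself was looked at as a check of the labels, and its level was higher, not lower, in the mutant. By edgeR's quasi-likelihood test its log2 difference was 0.96 without NaCl (adjusted p = 0.00661) and 0.50 with NaCl (adjusted p = 0.00381). CAMTA6 was at 34.8 ± 1.34 CPM (read counts scaled for library size with TMM factors) in camta6-5 against 17.8 ± 2.79 CPM in wild type when NaCl was absent. When NaCl was present the levels were 43.9 ± 7.43 against 30.9 ± 2.84 CPM (mean ± SD, n = 3). A count per gene cannot tell a complete transcript from a partial one, so genotype below means the label of the library. In 5 libraries 18S rRNA held more than 0.3% of the counts. These were wild-type control replicate 1, camta6-5 control replicates 1 and 3, and camta6-5 NaCl replicates 1 and 2. The summed level of 5 seed embryo markers was 437 to 722 CPM in untreated wild type and 554 to 1194 in untreated camta6-5, and 8636 to 10437 and 9734 to 16240 CPM with NaCl. The summed level of 5 markers of green seedling tissue was 792 to 1057, 866 to 1017, 275 to 366 and 557 to 678 CPM in the same order. Single genes weighed heavily in these sums. CRA1 averaged 9091 of 13144 CPM of the embryo sum in camta6-5 NaCl, and RBCS1A 808 of 908 CPM of the green sum in wild-type control. With NaCl, CRA1 was called higher in camta6-5 than in wild type (log2 difference 0.97) and SESA1 lower (-1.83). The other 3 embryo markers were not called, while 33.8% of all genes were higher and 28.5% lower. Of the 5 green tissue markers 4 were called higher in camta6-5 with NaCl. These were LHCB3 (3.22), LHCA1 (2.11), RBCS1A (0.92) and CAB1 (0.58), and RBCS2B (0.49) was not called. The 3 endosperm markers summed to 40.1 to 119 CPM over all libraries, and the 3 seed coat markers to at most 0.167 CPM. The part of these shifts in the levels below was not tested, and in bulk RNA fewer cells of a type and less RNA per cell cannot be told apart.

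All coordinates are those of the deposited table, build TAIR10. GASA2 (AT4G09610) lies on chromosome 4 from 6074770 to 6075645 and GASA3 (AT4G09600) on chromosome 4 from 6072804 to 6073612. Both are on the minus strand, 1157 bases apart, with 0 annotated genes between them. GASA1 (AT1G75750) lies on chromosome 1 from 28441526 to 28442429 on the minus strand, and GASA6 (AT1G74670) on chromosome 1 from 28053286 to 28054149 on the plus strand. GASA4 (AT5G15230) lies on chromosome 5 from 4944900 to 4946216 and GASA14 (AT5G14920) on chromosome 5 from 4826479 to 4827980, both on the plus strand. GASA6 overlaps AT1G74675, a protein-coding gene of the minus strand on chromosome 1 from 28053944 to 28055437 in the RefSeq annotation. The library kit does not mark strand, so reads in the overlap cannot be told apart by strand. AT1G74675 is not among the genes counted in the deposited table, so it has no counts of its own. Reads from AT1G74675 that fall in the overlap may therefore be within the GASA6 counts. Their part in the GASA6 levels was not tested. The other 5 genes overlap no annotated gene.

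Each of the 15 listed family proteins, translated from the genome, had at least 12 cysteines, and the last 12 spanned 58 or 59 residues. In 12 of the 15 the spacing between these cysteines was identical, and GASA14 was among the other 3. The encoded proteins of GASA1, GASA2, GASA3, GASA4 and GASA6 were 98, 99, 99, 106 and 101 residues long. GASA14 was longer, at 275 residues, with 215 residues before the cysteine stretch, of which 77 were proline. GASA2 and GASA3 were the closest pair among the 6, with 84.8% identical residues over the whole protein and 87.9% within the cysteine stretch. GASA4 and GASA6 followed, with 74.1% within the cysteine stretch. The longest identical stretch between GASA2 and GASA3 transcripts was 35 bases, and how the authors' counting treated reads that match both genes is not given in the sources used here.

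The bases upstream of the tandem pair are shown because GASA2 and GASA3 rose together with NaCl in both genotypes. They run from 250 to 51 bases before the start of each gene in the deposited table, 5′ to 3′ on the gene's strand, and capitals mark matches to the motifs searched.
GASA2 upstream, chr4:6075696-6075895, minus strand: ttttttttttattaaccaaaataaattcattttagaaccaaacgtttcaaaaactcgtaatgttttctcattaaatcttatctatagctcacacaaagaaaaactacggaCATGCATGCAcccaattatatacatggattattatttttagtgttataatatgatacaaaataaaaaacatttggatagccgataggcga
GASA3 upstream, chr4:6073663-6073862, minus strand: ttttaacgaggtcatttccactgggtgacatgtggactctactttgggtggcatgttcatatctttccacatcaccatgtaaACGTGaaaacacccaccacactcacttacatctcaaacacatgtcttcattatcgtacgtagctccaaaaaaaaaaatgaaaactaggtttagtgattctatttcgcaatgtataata
The search covered 250 bases before to 50 after the start, on both strands, for ACGTG (the core of the abscisic acid response element), CATGCA (the core of the RY element of seed genes), TAACAAA and TATCCAC (motifs of gibberellin response) and CGCG (the core of the motif that CAMTA proteins are known to bind). GASA2 held 3 overlapping matches to CATGCA, the first at -140, in the run CATGCATGCA, and none of the other motifs. GASA3 held 1 match to ACGTG at -168 and none of the others. Of 26711 protein-coding genes, 8.88% held CATGCA in the same window, 27.3% ACGTG, 16.7% TAACAAA, 3.25% TATCCAC and 14.9% CGCG. GASA4 held 1 match to ACGTG at -113 and GASA1 held none of the 5 motifs. GASA14, which fell with NaCl, held 2 overlapping matches to CATGCA, the first at -44, and GASA6 held none of the 5 motifs. The start of GASA6 differed by 256 bases and that of GASA14 by 338 between the deposited table and RefSeq. Where their windows lie relative to the start therefore depends on the annotation. The starts of GASA4, GASA3 and GASA1 differed by 84, 34 and 6 bases, and that of GASA2 by 0.

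NaCl moved the 6 genes in opposite directions in wild type. GASA2 and GASA3 were higher and GASA14, GASA4, GASA6 and GASA1 were lower, so that 2 of 6 rose and 4 of 6 fell. Over all 18515 genes tested, 37.9% rose and 39.6% fell in this comparison by edgeR's quasi-likelihood test, at a Benjamini-Hochberg adjusted p below 0.05. The median log2 change was -2.58 over the 6 genes and -0.0146 over all genes tested. In camta6-5 the same 2 genes rose and 3 fell, against 28.2% of all genes higher and 27.5% lower, and the median log2 change was -1.25 over the 6 and 0.00591 over all genes. GASA6 was the gene not called there.

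**Figure D1:**
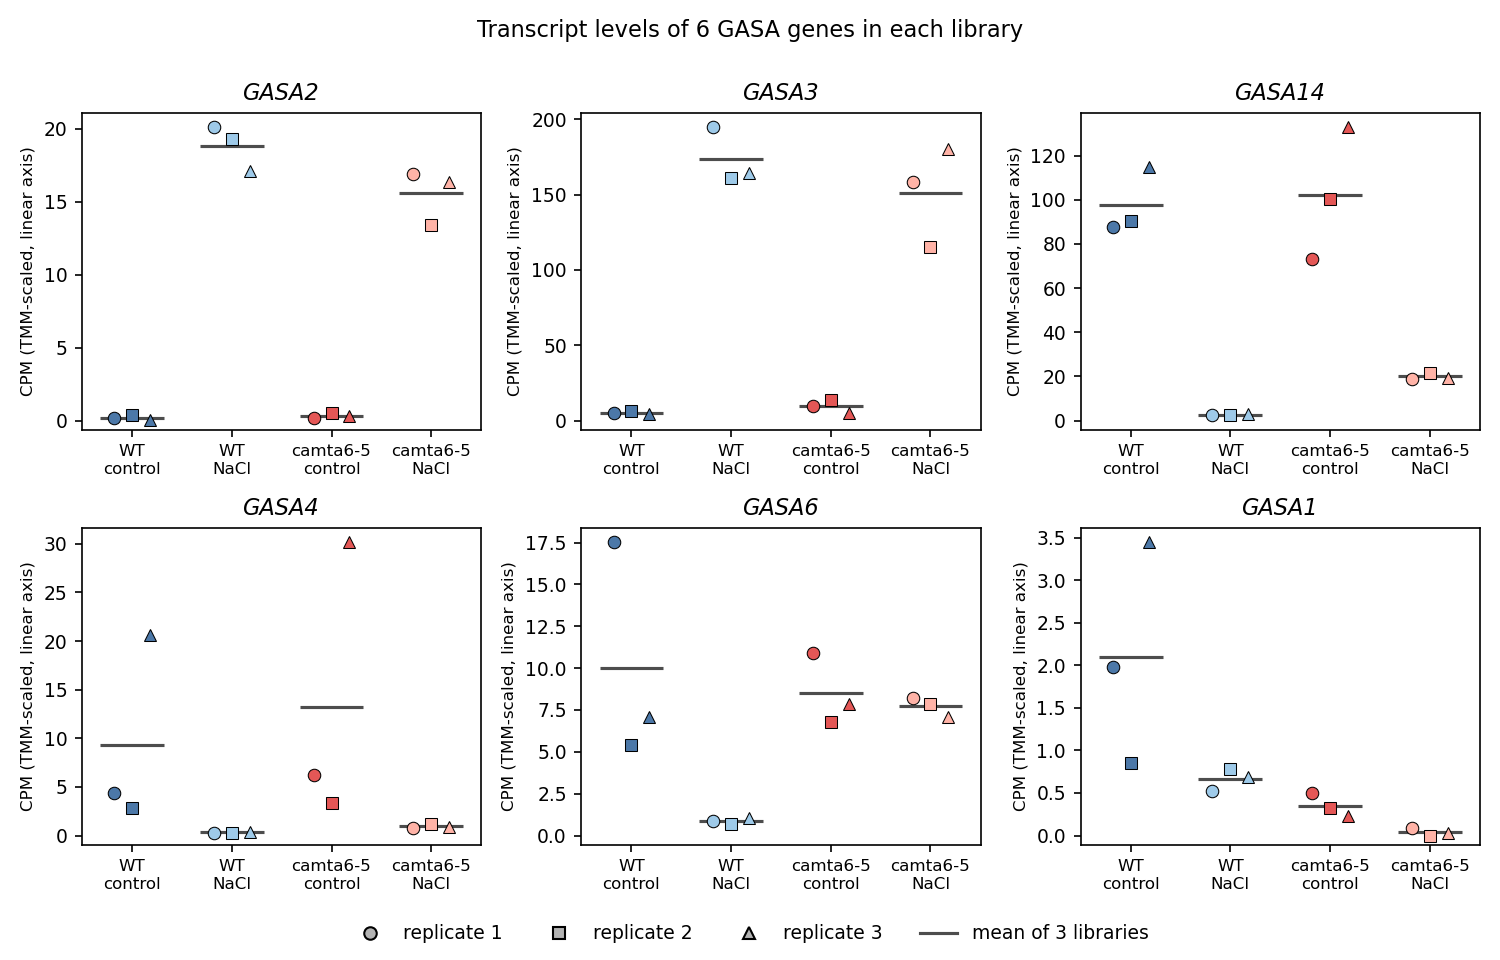
Each panel plots 1 gene's level in CPM (TMM-scaled, linear axis) in the 12 libraries, with a different symbol for each replicate number and a bar at the mean of each group of 3. GASA2 and GASA3 are high in all 6 NaCl libraries and low in the 6 control libraries. GASA14 and GASA6 are lowest in the wild-type NaCl libraries, and GASA4 stands high in replicate 3 of both control groups.

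GASA3, one of the seed genes of the tandem pair, was at 5.08, 6.35 and 4.69 CPM in the untreated wild-type libraries and at 195, 161 and 164 CPM in those with NaCl. In camta6-5 it was at 9.83, 14.02 and 4.88 CPM in control and at 158, 115 and 180 CPM with NaCl. All 6 NaCl libraries lay above all 6 control libraries, and the genotypes overlapped at both treatments. The log2 change with NaCl was 5.01 ± 0.301 (SE) in wild type (edgeR adjusted p = 8.06e-09) and 3.98 ± 0.284 in camta6-5 (adjusted p = 4.44e-07). Of the 18515 genes tested, 99.5% had a smaller log2 change in wild type and 99.6% in camta6-5.

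GASA2, its neighbour, was at 0.170, 0.367 and 0.0638 CPM in wild-type control, which are 6, 12 and 2 counts. With NaCl wild type reached 20.1, 19.3 and 17.1 CPM. In camta6-5 it was at 0.187, 0.489 and 0.299 CPM in control and at 16.9, 13.4 and 16.4 CPM with NaCl. As for GASA3, every NaCl library lay above every control library. The log2 change was 6.52 ± 0.280 in wild type (edgeR adjusted p = 7.39e-10) and 5.57 ± 0.265 in camta6-5 (adjusted p = 4.58e-08). The wild-type change was 7.26 without wild-type control replicate 2, which held 12 of the 20 counts of its group. Only 1 of 3 libraries in each control group passed the cutoff of the count filter (0.303 CPM), so GASA2 was tested because of its NaCl libraries.

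GASA14, the proline-rich member, was the most abundant of the 6 without NaCl. In wild type it stood at 87.8, 90.2 and 115 CPM without and at 2.39, 2.62 and 2.81 CPM with salt. In camta6-5 they were 73.1, 100.4 and 133 CPM in control and 18.9, 21.7 and 19.4 CPM with NaCl. The 3 camta6-5 NaCl libraries lay between the wild-type NaCl libraries and the controls, with no overlap. The log2 change with NaCl was -5.23 ± 0.217 in wild type (edgeR adjusted p = 5.95e-10) and -2.35 ± 0.179 in camta6-5 (adjusted p = 6.84e-07). These are falls of 37.4-fold and 5.10-fold.

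GASA6, the germination-promoting member, was at 17.6, 5.41 and 7.05 CPM in wild type on medium without salt and at 0.890, 0.692 and 1.05 CPM on medium with salt. In camta6-5 it was at 10.9, 6.78 and 7.84 CPM in control and at 8.21, 7.86 and 7.10 CPM with NaCl. The wild-type NaCl libraries lay below all other 9, and the camta6-5 groups overlapped. In wild type the log2 change was -3.51 ± 0.416 (edgeR adjusted p = 4.16e-06). It was -2.80 without wild-type control replicate 1, the library with the highest GASA6 level and also the highest summed endosperm markers, at 119 CPM against 40.1 and 58.4 CPM in the other 2 of its group. In camta6-5 the change was -0.14 ± 0.336 (adjusted p = 0.742), with a 95% interval from -0.87 to 0.59, and its sign turned without camta6-5 control replicate 1.

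Among the 3 endosperm markers, EXPA2, an expansin gene of the germinating endosperm, was singled out after its values were seen. In wild type EXPA2 was at 54.8, 14.1 and 23.6 CPM without and 7.48, 3.16 and 7.42 CPM with salt, and in camta6-5 at 23.2, 13.8 and 14.9 CPM without and 30.1, 20.3 and 20.7 CPM with salt. Its log2 change was -2.36 ± 0.445 in wild type (edgeR adjusted p = 0.00028) and 0.45 ± 0.415 in camta6-5 (adjusted p = 0.372), and like GASA6 it was highest in wild-type control replicate 1. The other 2 markers were also highest of their group in that library, EPR1 at 46.6 CPM and MAN7 at 17.2 CPM. Unlike EXPA2, neither was called lower with NaCl in wild type. In wild type the log2 change of EPR1 was 0.31 ± 0.372 (adjusted p = 0.454) and that of MAN7 -0.15 ± 0.134 (adjusted p = 0.331). In camta6-5 EPR1 was at 0.90 ± 0.384 (adjusted p = 0.0614), and MAN7 was called higher, at 0.33 ± 0.133 (adjusted p = 0.047). The part of endosperm RNA in the GASA6 levels was not tested.

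GASA4, the gibberellin-induced growth gene, varied most between replicates. In wild-type control it was at 4.42, 2.78 and 20.6 CPM and in camta6-5 control at 6.22, 3.36 and 30.2 CPM, with replicate 3 highest in both. Those replicates also held the highest summed green tissue markers of their groups, at 1057 and 1017 CPM, and the lowest summed seed embryo markers, at 437 and 554 CPM. With NaCl it was at 0.306, 0.301 and 0.398 CPM in wild type and at 0.812, 1.20 and 0.837 CPM in camta6-5, below every control library. The log2 change was -4.77 ± 1.05 in wild type (edgeR adjusted p = 0.000946) and -3.79 ± 0.899 in camta6-5 (adjusted p = 0.00308). Without replicate 3 of the control group concerned these were -3.39 and -2.32, and both kept an adjusted p below 0.05.

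GASA1 had the lowest counts of the 6. In wild-type control it was at 1.99, 0.855 and 3.45 CPM, which are 70, 28 and 108 counts, and with salt at 0.528, 0.782 and 0.682 CPM. In camta6-5 control it was at 0.498, 0.326 and 0.233 CPM, and the camta6-5 NaCl libraries held 3, 0 and 1 counts. The levels of the 4 groups did not overlap, with untreated wild type highest, then salt-treated wild type, then untreated camta6-5, and salt-treated camta6-5 lowest. The log2 change with NaCl was -1.65 ± 0.449 in wild type (edgeR adjusted p = 0.00427) and -3.02 ± 0.870 in camta6-5 (adjusted p = 0.00987). For the 4 counts of camta6-5 NaCl against 33 in camta6-5 control, the ratio scaled for depth was 8.83, with a 95% interval of 3.14 to 34.3 that covers counting error only. Without camta6-5 NaCl replicate 1 the change in camta6-5 was -4.22, and GASA1 passed the filter mainly through wild type, where all 6 libraries were past the cutoff, against 1 of 6 in camta6-5.

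Leaving out the 5 libraries rich in 18S rRNA left 1 library in each camta6-5 group. The calls for NaCl in camta6-5 of GASA1 (log2 change -3.15, adjusted p = 0.224) and GASA4 (-2.004, adjusted p = 0.261) were then lost, and 3 of the 6 genes remained called, the lone libraries being assumed to vary like those of the other groups. In wild type all 6 calls were kept.

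**Figure D2:**
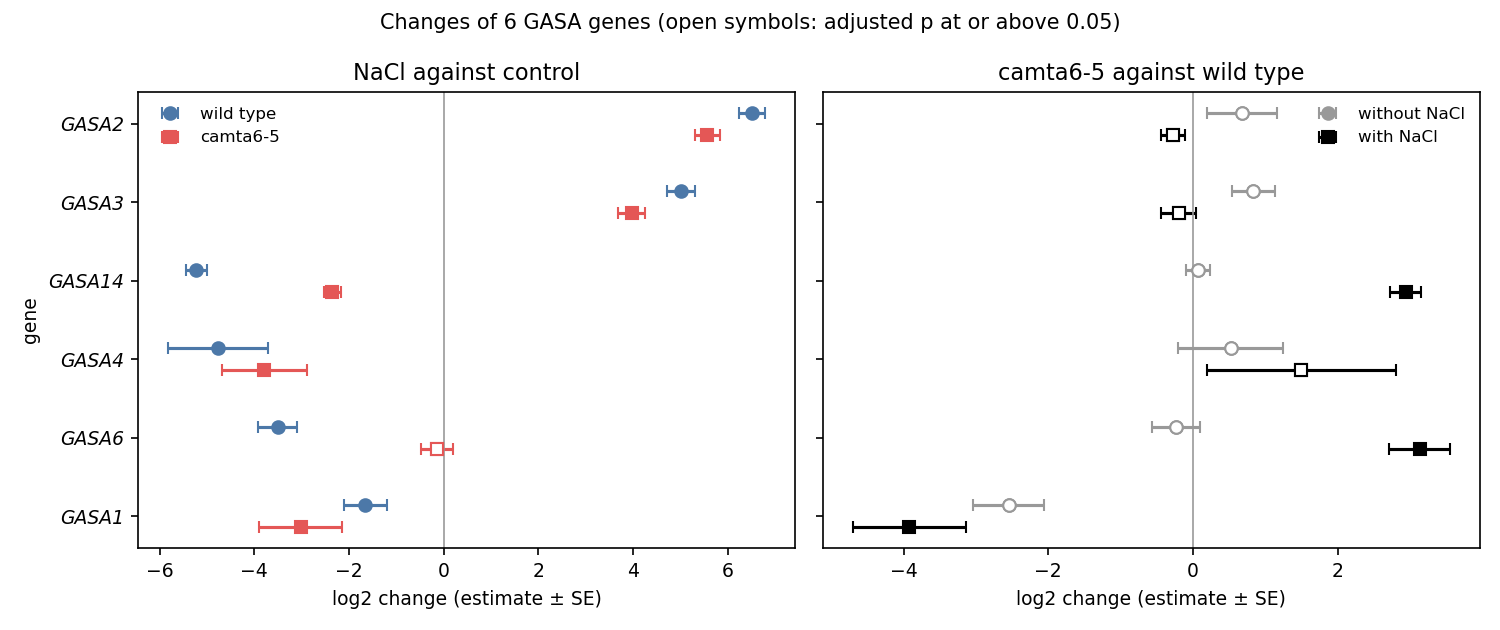
Log2 changes with SE of the 6 genes are plotted for NaCl against control in each genotype on the left and for camta6-5 against wild type at each treatment on the right, with filled symbols where edgeR's adjusted p was below 0.05. On the right with NaCl, GASA6 (3.13) and GASA14 (2.94) are above 0 and GASA1 (-3.92) is below 0.

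Without NaCl, 0 of the 6 genes differed between camta6-5 and wild type by edgeR's quasi-likelihood test. Of all genes tested, 0.0864% were higher and 0.13% lower in camta6-5. At an unadjusted edgeR p below 0.05, 2 of the 6 differed (GASA1 and GASA3), against 2037 of the 18515 genes tested. DESeq2 called 1 of the 6 and limma voom 0, and the shares of all genes they called are not given here. GASA1 had a log2 difference of -2.55 ± 0.495 (edgeR adjusted p = 0.0654), with all 3 camta6-5 libraries below all 3 of wild type. It passed the threshold with DESeq2 (adjusted p = 0.000977), with no filter on low counts (adjusted p = 0.0144) and without wild-type control replicate 2 (adjusted p = 0.0187). Same-numbered control libraries of the 2 genotypes deviated together, and with the replicate number as a block in a fit of only these 2 groups the difference was -2.46 (adjusted p = 0.106). GASA3 had a log2 difference of 0.83 ± 0.296 (adjusted p = 0.346). The 95% interval of the GASA14 difference was -0.30 to 0.43 and that of GASA6 -0.95 to 0.48, and the sign of both turned when single control libraries were left out. For GASA2 and GASA4 the differences were 0.67 ± 0.485 and 0.52 ± 0.721, with overlapping libraries. The GASA2 difference was 1.39 without wild-type control replicate 2 and ran from 0.25 to 1.39 over the fits that each left out 1 library.

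With NaCl, GASA6 and GASA14 were higher in camta6-5 and GASA1 was lower. These are 2 and 1 of the 6 genes, against 33.8% of all genes higher and 28.5% lower. GASA6 was 3.13 ± 0.420 higher on the log2 scale (8.75-fold, edgeR adjusted p = 3.08e-05) and GASA14 was 2.94 ± 0.212 higher (7.67-fold, adjusted p = 2.56e-07). GASA1 fell to 4 counts in camta6-5 NaCl against 69 in wild-type NaCl, a depth-scaled ratio of 16.4 (95% counting interval 6.13 to 62.0) and a log2 difference of -3.92 ± 0.782 (adjusted p = 0.000726). That difference was -5.11 without camta6-5 NaCl replicate 1. GASA2 (-0.27 ± 0.168, 95% interval -0.64 to 0.09) and GASA3 (-0.20 ± 0.242, interval -0.72 to 0.32) did not pass the threshold. The GASA3 libraries of the genotypes overlapped, while those of GASA2 did not, at 13.4 to 16.9 CPM in camta6-5 against 17.1 to 20.1 in wild type.

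GASA4 was higher in all 3 camta6-5 NaCl libraries than in any wild-type NaCl library, but its log2 difference of 1.497 ± 1.31 did not pass (edgeR adjusted p = 0.333). In a fit of only these 2 NaCl groups, without the control libraries among which GASA4 varied most, the difference was 1.46 with an adjusted p of 0.00152. The same fit also called GASA2 lower (-0.31, adjusted p = 0.0254), which brought the genes called to 5 of 6. The main fit had called 33.8% of all genes higher and 28.5% lower, and the shares in this fit are not given here.

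The response to NaCl in camta6-5 minus that in wild type was tested as the genotype by NaCl interaction. Of the 6 genes 2 were higher and 1 lower, against 27.1% and 21% of all genes. The interaction of GASA6 was 3.37 ± 0.539 on the log2 scale (edgeR adjusted p = 0.000284), and it was 2.66 without wild-type control replicate 1. GASA14 had an interaction of 2.87 ± 0.270 (adjusted p = 7.53e-06), which kept its call in all 20 alternatives run. Both genes fell with NaCl in wild type, while in camta6-5 GASA14 fell by less and GASA6 was not called.

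For GASA3 the interaction was -1.03 ± 0.382 (edgeR adjusted p = 0.0394), a smaller rise in camta6-5. This call was lost with the replicate number as a block (-1.001, adjusted p = 0.0582), with limma voom (-0.94, adjusted p = 0.0713) and in 8 of the 12 fits that each left out 1 library. Without camta6-5 control replicate 2 it was -0.68 (adjusted p = 0.115). GASA2 had the same sign without passing (-0.95 ± 0.514, adjusted p = 0.146), and passed without wild-type control replicate 2 (-1.69, adjusted p = 0.0218). GASA1 (-1.37 ± 1.02, adjusted p = 0.285) and GASA4 (0.98 ± 1.502, adjusted p = 0.619) had wide errors, and the sign of GASA4 turned without wild-type control replicate 3 (-0.40).

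Levels were compared between genes as CPM per kilobase of annotated exons. In wild-type control GASA14 was highest at 48.9 ± 7.49 CPM per kb, above all libraries of the rest. GASA6 (10.99 ± 7.24), GASA4 (9.31 ± 9.90) and GASA3 (8.40 ± 1.36) followed without differing beyond their spread, then GASA1 (2.76 ± 1.71), whose libraries overlapped those of GASA4, and last GASA2 (0.378 ± 0.290). In camta6-5 control the order was GASA14 at 51.2 ± 14.997, then GASA3, GASA4 and GASA6 at 14.96 ± 7.14, 13.3 ± 14.8 and 9.35 ± 2.36 with overlapping libraries, then GASA2 (0.614 ± 0.289) and GASA1 (0.463 ± 0.177), which also overlapped.

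With NaCl, GASA3 led at 271 ± 29.1 CPM per kb in wild type and 236 ± 51.6 in camta6-5, and GASA2 was next at 35.6 ± 2.95 and 29.4 ± 3.56. In wild type these were followed by GASA14 (1.31 ± 0.106), GASA6 (0.964 ± 0.198) and GASA1 (0.874 ± 0.168), of which GASA6 and GASA1 overlapped, and by GASA4 (0.336 ± 0.0550). In camta6-5 GASA14 (10.02 ± 0.762) and GASA6 (8.49 ± 0.621) came next, then GASA4 (0.952 ± 0.216) and GASA1 (0.0529 ± 0.0577).

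The make-up of the 6 genes' transcripts differed between the treatments. The share of GASA14 in their summed CPM per kb was 61.2 ± 6.76% in wild-type control and 56.5 ± 4.42% in camta6-5 control. With NaCl it was 0.426 ± 0.0705% in wild type and 3.64 ± 1.02% in camta6-5. The share of GASA3 was 10.9 ± 3.88% and 18.1 ± 10.1% without NaCl and 87.4 ± 0.910% and 82.5 ± 2.74% with NaCl. GASA6 held 0.313 ± 0.0719% in wild-type NaCl and 3.07 ± 0.732% in camta6-5 NaCl. The sum over the 6 genes was 80.8 ± 16.3 and 89.9 ± 21.9 CPM per kb in the wild-type and camta6-5 controls and 310 ± 30.8 and 285 ± 53.6 with NaCl. Per kilobase of coding sequence instead of exons, GASA14 held 58.4 ± 8.24% in wild-type control and GASA3 88.9 ± 0.799% in wild-type NaCl.

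**Figure D3:**
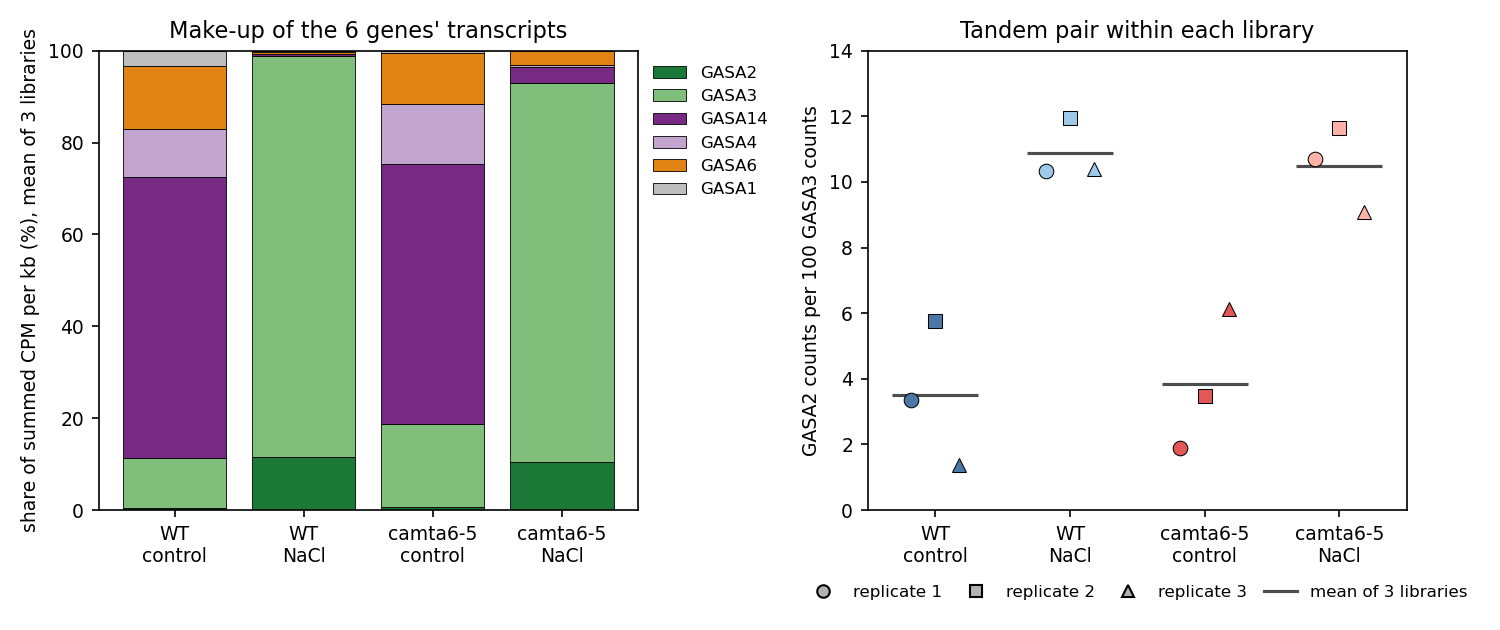
Left, stacked bars give each gene's share (%) of the summed CPM per kilobase of exons, as the mean of 3 libraries per group. Right, GASA2 counts per 100 GASA3 counts are plotted for each library with bars at the group means, and the 6 NaCl libraries at 9.10 to 11.96 lie above the 6 control libraries at 1.36 to 6.12.

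Within the tandem pair the balance also differed with salt. Wild type had 3.35, 5.77 and 1.36 GASA2 counts per 100 GASA3 counts without salt and 10.3, 11.96 and 10.4 with it. In camta6-5 there were 1.899, 3.49 and 6.12 in control and 10.7, 11.7 and 9.10 with NaCl. All NaCl libraries lay above all control libraries in both genotypes, while the control values rest on 2 to 15 GASA2 counts per library.

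In the rest of the family, GASA7 (AT2G14900, chromosome 2, 6404175 to 6405330) was the only tested gene of 9. It was at 0.636 ± 0.0377 CPM in untreated and 0.0295 ± 0.0301 CPM in salt-treated wild type, and at 0.474 ± 0.182 and 0.158 ± 0.128 CPM in camta6-5. The 3 wild-type NaCl libraries held 3 counts against 63 in wild-type control, a depth-scaled ratio of 22.1 (95% counting interval 7.22 to 110). Each control library held 11 to 21 counts and each NaCl library 0 to 9, so the gene passed the filter mainly through its controls. GASA7 was lower with NaCl in wild type (edgeR adjusted p = 4.65e-05) and in camta6-5 (adjusted p = 0.0178), and higher in camta6-5 than in wild type with NaCl (adjusted p = 0.0309). The last had a ratio of 5.25 (interval 1.49 to 28.3), and the call was lost without wild-type NaCl replicate 1 or 3 or camta6-5 NaCl replicate 3. The NaCl call within camta6-5 was lost when control replicate 2, or either of NaCl replicates 1 and 2, was left out, and also without the libraries rich in 18S rRNA (-1.18, adjusted p = 0.263). The remaining 8 family genes had 0 to 13 counts over all 12 libraries and were not tested.

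In the genes of gibberellin synthesis, inactivation and perception, calls in both directions were found, as over all genes tested, of which 37.9% rose and 39.6% fell with NaCl in wild type and 28.2% rose and 27.5% fell in camta6-5. Of 10 listed synthesis genes, all tested, 3 rose and 4 fell with NaCl in wild type (median log2 change -0.07) and 3 rose and 3 fell in camta6-5 (median 0.10). GA3OX2, which makes active gibberellin in germinating seeds, fell in wild type from 89.4 ± 6.13 to 7.06 ± 1.28 CPM and in camta6-5 from 83.9 ± 13.6 to 26.5 ± 9.85 CPM. Its interaction was 1.9998 ± 0.297 (edgeR adjusted p = 0.000169), of the same sign as those of GASA6 and GASA14. GA20OX3, of the preceding step, went the other way, from 30.4 ± 7.20 to 178 ± 53.6 CPM in wild type and from 30.0 ± 7.46 to 34.8 ± 2.19 CPM in camta6-5, where it was not called. Its interaction was -2.33 ± 0.321 (adjusted p = 9.7e-05). Over the 10 synthesis genes the interaction was called higher for 4 and lower for 4 (median 0.08), against 27.1% and 21% of all genes.

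Of 7 listed genes of gibberellin inactivation 3 were tested, of which 2 rose in wild type (median 0.85), and in camta6-5 2 rose and 1 fell (median 0.57). GA2OX3 rose from 0.0925 ± 0.0582 to 1.12 ± 0.272 CPM in wild type and from 0.0649 ± 0.0567 to 0.325 ± 0.0713 in camta6-5. Its control groups held only 9 (wild type) and 6 (camta6-5) counts, so GA2OX3 was tested because of its NaCl libraries. All 5 listed receptor and F-box genes were tested, and 3 rose and 2 fell in wild type (median 0.45) against 2 and 2 in camta6-5 (median 0.12). The receptor gene GID1A went from 30.0 ± 2.05 to 102 ± 16.3 CPM in wild type and from 27.4 ± 1.28 to 53.5 ± 4.43 in camta6-5, and SNE, an F-box gene related to SLY1, fell by 2.44 and 1.65 on the log2 scale. Of the 5 DELLA genes 2 rose and 1 fell in wild type (median 0.15), and 4 rose and 1 fell in camta6-5 (median 0.32), against the same shares of all genes. RGL1 fell by 2.28 and 1.18, and RGL2, the main DELLA repressor of germination, rose by 0.56 and 0.59.

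The tested genes whose pattern over the 12 libraries was most like that of each member were ranked by the root mean square difference of log2 CPM after each gene was centred on its own mean. The comparison covered 18508 genes outside the family, and a smaller value means a closer pattern. GASA14 had the closest matches, AT1G27930 at 0.193 and the tubulin gene TUB1 at 0.201. GASA3 was matched by AT2G21820 (0.244) and M10 (0.268), and GASA2 by ATECP31, a late embryogenesis abundant protein gene, at 0.427 and by AT2G42000 at 0.569. GASA6 was matched by AT5G13140 (0.399) and a cyclin gene listed as cycp3 (0.414), and GASA4 by AT5G48110 (0.454) and PORB, of chlorophyll synthesis, at 0.504. The mean level of AT5G48110 under salt was 0 for wild type and 0.0703 CPM for camta6-5. Its log2 values there are set largely by the prior count of 2 added to every library. Its likeness to GASA4 under salt is therefore limited by this floor. GASA1 had the most distant matches, TPS06 at 0.855 and ANAC104 at 0.864. The floor set by the prior count also limits the camta6-5 NaCl values of ANAC104, at 0.0482 CPM, and of GASA1 itself, at 0.0402 CPM. Among the 6 genes themselves the closest pair was GASA2 and GASA3 at 0.797, followed by GASA4 and GASA14 at 0.969 and GASA6 and GASA14 at 1.16.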

How the data were processed

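The members and gene lists were chosen with earlier results of these data known. The authors deposited 1 table of raw counts per gene: its values are whole and its column totals unequal. The submitters' processing notes name HTSeq 0.6.1, TopHat2 2.1.0, Bowtie2 2.2.6, cutadapt 1.9 and DESeq2 1.10.0, and build TAIR10; settings, strand mode and the treatment of reads on more than 1 gene are not given in the sources used here. Per the labels' protocols the kit was Illumina TruSeq RNA v2, which does not mark strand.

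In R 4.3.3 with edgeR 4.0.16, filterByExpr (minimum count 10, minimum total 15) kept 18515 of 33602 genes, TMM scaled the 12 libraries, and a single quasi-likelihood fit of the 4 group means (residual degrees of freedom 8) gave 5 two-sided comparisons. P-values were adjusted by Benjamini-Hochberg across the 18515 genes, and calls were made below 0.05. CPM are mean ± SD of 3 libraries, and SE is the absolute log2 change divided by the square root of F. The 95% intervals of changes use the moderated degrees of freedom, and intervals of count ratios are exact. Without molecular identifiers reads are not independent molecules, and the latter cover counting error only. The labels do not say that replicates came from separate cultures, so p-values measure the spread between these samples, which may be technical. The fit was tested on simulated data.

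Values are given for the 6 genes in every comparison, for family genes that passed the filter, for up to 3 genes of each gibberellin list by smallest adjusted p, and for the 2 genes most like each member (log2 CPM with a prior count of 2).

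Replicate numbers come from the sample titles. Deviations from the group means of same-numbered libraries correlated at 0.225, 0.179 and 0.27 between wild-type control and camta6-5 control, each over 0.1. Pairing entered only in alternative fits with the replicate number as a block, and the main fit had no block. Between the other groups correlations ran from -0.218 to 0.221. Alternatives were RLE size factors, library totals alone, no filter, a minimum count of 50, DESeq2 1.42.0, limma voom 3.58.1, fits of only the groups compared, the replicate block, leaving out each library, and leaving out the 5 libraries above 0.3% 18S rRNA. A fit of the control groups alone with the block was added after seeing the data.

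Annotation and sequence came from the RefSeq annotation of the TAIR10.1 assembly, whose nuclear chromosomes carry TAIR10 numbering. Of 32835 nuclear genes of the table found there, 32834 overlapped their RefSeq position. Alignments used Biopython 1.88 with Python 3.11.15.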

Additional observations from a re-analysis of the deposited data

Results flagged for a closer look

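The NaCl response differed between the genotypes, by the test of the interaction itself, for 4 of the 7 tested genes of the family. Over all genes tested, 27.1% were called higher and 21% lower in this contrast, so such a difference is not particular to the family. GASA6 had a response 3.37 higher on the log2 scale in camta6-5 than in wild type, and GASA14 one 2.87 higher. GASA7 had a response 2.68 higher, which rests on 3 counts in the 3 wild-type NaCl libraries and lost its call in 6 of 19 alternatives. These were the fits without wild-type NaCl replicate 1 or 3, without control replicate 1 or 3 of camta6-5, without its NaCl replicate 3 (1.89) and without the libraries rich in 18S rRNA. Without wild-type NaCl replicate 2 the GASA7 value was 3.54. GASA3 had a response of -1.03 in the same contrast, a smaller rise in camta6-5, which lost its call in 8 of the 12 fits that each left out 1 library. Groups of 3 libraries are too small for a check of single outlying values.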

How the results depend on the processing

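Of 721 values of single family genes under other settings, 677 kept their direction and their side of the threshold, 25 lost the call, 6 gained it and 13 changed sign, all of these in differences that were not called. The number of the 6 genes called for NaCl in camta6-5 was 3 without the libraries above 0.3% 18S rRNA. For genotype without NaCl it was 1 with no filter on low counts and 1 with DESeq2, and 0 to 1 when single libraries were left out. For genotype with NaCl it was 5 in a fit of only the groups compared. The shares of all genes called under these settings are not given here. Without the libraries above 0.3% 18S rRNA the sign changed for genotype without NaCl in GASA4 (-1.81), GASA6 (0.115), GASA14 (-0.0394) and GASA7 (0.0548), for GASA3 with NaCl (0.0135) and for GASA6 with NaCl against control in camta6-5 (0.0614). When single libraries were left out, genotype without NaCl ran from -0.96 to 1.87 for GASA4, from -0.55 to 0.44 for GASA6 and from -0.18 to 0.25 for GASA14, the GASA4 interaction from -0.40 to 2.43, and the GASA6 change in camta6-5 from -0.28 to 0.0759. The cause was not tested. With the replicate block, the GASA3 interaction was -1.001 (edgeR adjusted p = 0.0582), 2 of the 6 genes were called for the interaction, and no other call of the 6 genes changed. Low counts limit GASA1, GASA7 and the control levels of GASA2 and GA2OX3.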
